A study of Mus musculus with 28 samples.

Results

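The livers of CAR-deficient mice fed ethanol with a polyphenol were compared with those of CAR-deficient mice fed ethanol alone. The comparison took the 6 arrays of the 2 polyphenol diets together, 3 of ethanol with ellagic acid (EtOH+EA) and 3 of ethanol with trans-resveratrol (EtOH+RSV), against the 3 arrays of the ethanol diet (EtOH), which makes 9 of the 28 arrays of the series. Each array (Affymetrix, for the mouse genome) held liver RNA of 1 mouse. The groups are those given on the sample labels, and the study asked with this genotype whether the hepatic answer to the polyphenols needs CAR. The mice were C3H/HeN, labelled female and 5 weeks old on arrival. They received Lieber's isocaloric liquid diet, with or without ethanol, freely for 1 week and then at 12 g per day for 4 weeks, and the polyphenol intake came to about 50 mg per kg body weight per day. All CAR-deficient groups carried the same deletion and differed only in the diet. The 3 CAR-deficient mice on the control diet without ethanol and the wild-type mice on the same ethanol diets (4 mice per diet, 12 arrays) are given where a value of theirs stands beside a result.

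CAR, the constitutive androstane receptor encoded by Nr1i3, is a nuclear receptor of hepatocytes that switches on genes of drug and steroid metabolism, Cyp2b10 being its classical target. Ethanol is oxidised in hepatocytes by alcohol dehydrogenase, aldehyde dehydrogenase and Cyp2e1. Ellagic acid occurs in berries and nuts and trans-resveratrol in grapes, and both are taken up and conjugated in gut and liver.

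All 45011 probe sets with a value on the CAR-deficient arrays were tested, after 64 control probe sets and 26 blank ones were set aside. They represent 18188 named genes. The values are the authors' Distribution Free Weighting (DFW) values on a log2 scale, a summary that flattens probe sets with little variation between arrays. An SD of at most 0.01 over the 12 CAR-deficient arrays (called compressed below) was found for 79.3% of the probe sets, and the SD nearest to this limit was 0.00991 inside it and 0.01001 outside it. A DFW difference is not a calibrated log2 fold change, and it can only be compared within a probe set.

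Some properties of the arrays preceded the results. EtOH replicate 1 stood apart: 520 of its probe sets lay more than 1 from their median over the 9 arrays, against 163 in EtOH+RSV replicate 3 and 31 to 77 in the other 7, and its correlation with the other CAR-deficient arrays reached 0.987 at most, where the whole set ran from 0.979 to 0.998. Values without it are given beside the main results. The sex on the labels was not settled by sex-linked genes. All 3 probe sets of Xist, which is transcribed from the inactive X chromosome of females, were compressed at 5.93 to 6.68. The probe sets of the Y-linked gene Eif2s3y disagreed. One was not compressed and read 9.41 to 10.0 on the 12 CAR-deficient arrays (percentile 91.7 of all probe sets, and 92.1 on the wild-type arrays). The other was compressed at 5.92 (percentile 3.78), below all those of Xist. The probe sets of the Y-linked genes Kdm5d and Uty were compressed, which means little variation between arrays and not absence. The highest of them read 7.65 (Kdm5d) and 7.87 (Uty). They stood at percentiles 70.8 and 74.4 of all probe sets, against 3.86 to 39.3 for Xist. The other probe sets of Kdm5d and Uty stood at percentiles 10.9 to 65.4, most of them within the range of Xist. Among the diets, the male-biased Cyp4a12a and Slco1a1 were highest and the female-biased Sult3a1 lowest on the control diet, as given below. The label is repeated here as given, and the sex of the mice was not settled. Nr1i3 itself gave 8.56, 9.33 and 9.01 with ethanol and 8.60 to 9.49 with the polyphenols, a difference of 0.05 (limma adjusted p = 0.974). The sources used here do not say whether its probes lie in the deleted part, so this value does not check the genotype.

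No probe set passed the test between polyphenols and ethanol in the CAR-deficient mice. The 0 calls of limma at an adjusted p of 0.05, 0% of 45011, stood beside 3801 probe sets (8.44%) with an unadjusted p under 0.05, of which 1753 were above (3.89%) and 2048 below (4.55%) the ethanol arrays, and the lowest adjusted p was 0.0649. The values of the 6 polyphenol arrays lay wholly above those of the 3 ethanol arrays for 706 probe sets (1.57%) and wholly below for 783 (1.74%); among the 9300 uncompressed probe sets these counts were 174 (1.87%) and 238 (2.56%). Rank product is the method the study used, there after qFARMS normalization. Run here on the DFW values, it called 1104 probe sets higher (2.45%) and 54 lower (0.12%) at a false discovery rate of 0.05. Of the 1104, 163 showed no overlap between the groups and 15 had a fitted difference of the opposite sign. Without EtOH replicate 1, limma again called 0 and rank product called 1038 higher and 13 lower.

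The whole profiles of the polyphenol and the ethanol arrays were then compared. The mean distance (1 minus Pearson's r) was 0.00956 between the groups and 0.00707 within them. The difference of 0.00249 gave p = 0.0952 (exact permutation test, one-sided, 84 choices of 3 arrays, smallest possible p = 0.0119). Without EtOH replicate 1 the distance between the groups was no longer the larger one, at a difference of -8.57e-05.

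Among the genes with the lowest p and no overlap between the groups, 12 were higher and 12 lower with the polyphenols. These are the named genes of the comparison, and none of them passed the adjusted test. Rcor3, a corepressor of the CoREST family, read 8.09, 8.11 and 8.15 on the ethanol arrays and 8.29 to 8.41 (median 8.32) on the polyphenol arrays, a difference of 0.22 ± 0.02 (SE; adjusted p = 0.0649). Zfp760, which encodes a zinc finger protein, read 7.59, 7.62 and 7.58 with ethanol and 7.82 to 7.87 (median 7.86) with the polyphenols, a difference of 0.25 ± 0.03 (adjusted p = 0.0667). Both were tight within each diet, and the control arrays lay below the ethanol arrays in Rcor3 (7.68 to 7.72) and below or level with them in Zfp760 (7.46 to 7.59).

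Ptbp1 encodes the polypyrimidine tract binding protein, a repressor of exon use. One of its probe sets read 6.67, 7.60 and 7.48 with ethanol and 8.68 to 10.68 (median 10.29) with the polyphenols, the largest difference among these genes at 2.67 ± 0.39 (adjusted p = 0.233; 2.38 without EtOH replicate 1). The control arrays read 10.77, 10.79 and 10.55, close to the upper polyphenol arrays. A second, uncompressed Ptbp1 probe set went the other way, with a difference of -0.34 (adjusted p = 0.352), so the 2 probe sets disagree on the gene. Bmf, a BH3-only member of the BCL2 family that promotes apoptosis, read 6.14, 7.21 and 6.40 with ethanol, 7.94 to 8.63 (median 8.31) with the polyphenols and 9.02 to 9.43 on the control diet. Its difference was 1.69 ± 0.25 (adjusted p = 0.233), and in wild-type mice Bmf rose by 0.80 (adjusted p = 0.0376).

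Mup5, one of the major urinary proteins that male livers secrete to bind pheromones, read 7.01, 8.13 and 8.29 with ethanol against 9.03 to 9.84 (median 9.65) with the polyphenols. The difference of 1.68 ± 0.28 (adjusted p = 0.303) became 1.28 without EtOH replicate 1, the lowest of the ethanol arrays. The remaining genes of this direction differed by 0.17 to 0.67. They were Sox7 (0.67), an endothelial transcription factor, Clmn (0.48), Nudt16 (0.47), a hydrolase that removes RNA caps, Mettl7a1 (0.41), Glyat (0.40), which conjugates acyl groups to glycine, Bmp2k (0.22) and Trafd1 (0.17), a feedback inhibitor of innate immune signalling. Nudt16, Clmn and Bmp2k also rose in wild-type mice, by 0.44, 0.41 and 0.20 (adjusted p = 0.014, 0.0124 and 0.0277).

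**Figure D1:**
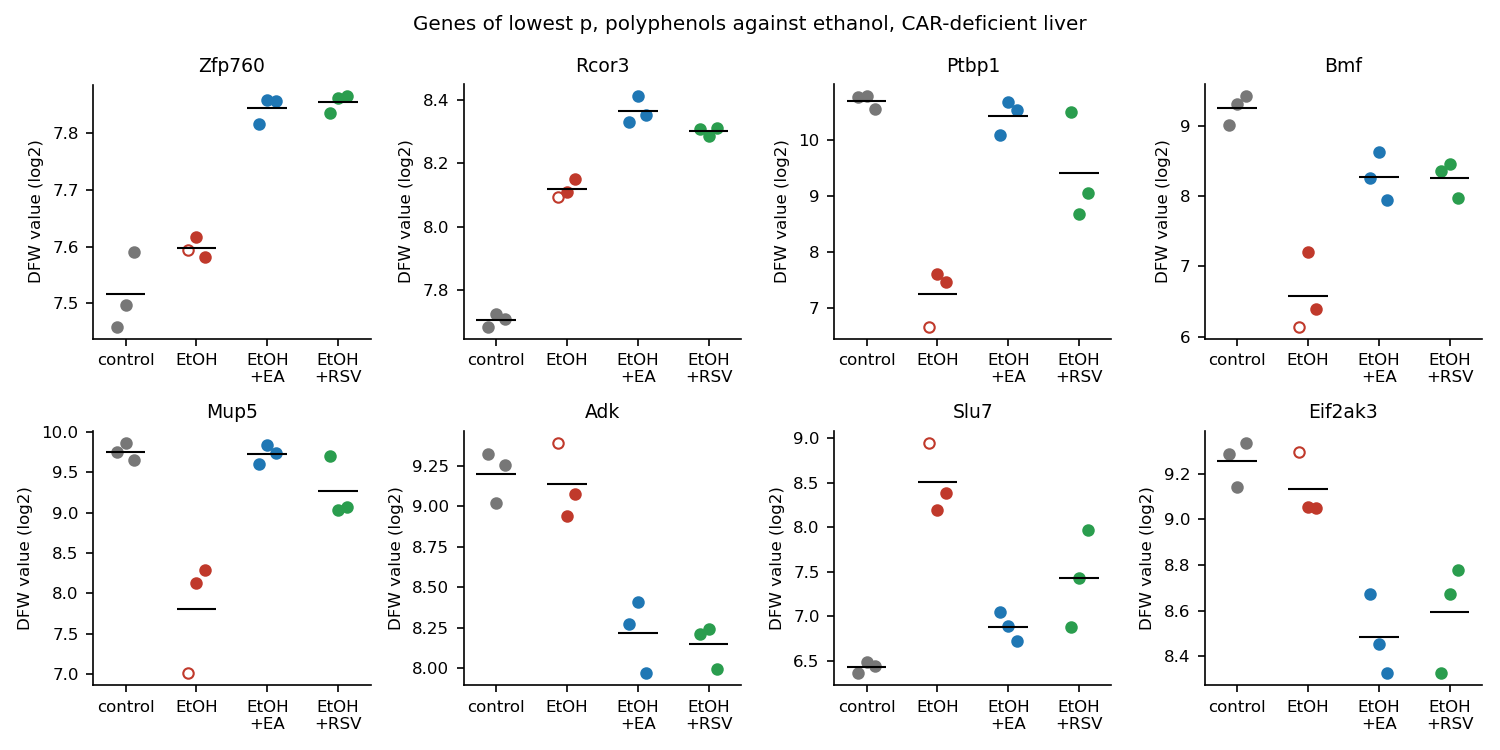
DFW values (log2, y axis, which does not start at 0 and has its own range in each panel) of 8 genes with low p on each CAR-deficient array, by diet on the x axis. Points are arrays, bars are means of 3, and the open point is EtOH replicate 1. In all 8 panels the ethanol points lie apart from the 6 polyphenol points, as the choice of these genes required.

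Of the 12 genes lower with the polyphenols, the largest differences were found in Slu7 and Adk. Adk, adenosine kinase, read 9.39, 8.94 and 9.08 with ethanol and 7.97 to 8.41 (median 8.23) with the polyphenols, a difference of -0.95 ± 0.13 (adjusted p = 0.219; -0.82 without EtOH replicate 1). Its ethanol arrays lay beside the control arrays (9.02 to 9.32). Its 4 other uncompressed probe sets differed by less, at -0.28, -0.15, -0.08 and 0.04. All 4 overlapped between the groups, and none had an unadjusted p under 0.05. Slu7, a factor of the second step of splicing, read 8.95, 8.20 and 8.38 with ethanol, 6.72 to 7.97 (median 6.97) with the polyphenols and 6.36 to 6.48 on the control diet. Its difference was -1.35 ± 0.24 (adjusted p = 0.337), and its only other uncompressed probe set had the opposite sign.

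Eif2ak3, which encodes PERK, the endoplasmic reticulum (ER) stress kinase that phosphorylates eIF2α, read 9.30, 9.06 and 9.05 with ethanol and 8.32 to 8.78 (median 8.56) with the polyphenols. The difference of -0.60 ± 0.12 (adjusted p = 0.352; -0.52 without EtOH replicate 1) stood beside a fall in wild-type mice by 0.42 (adjusted p = 0.0104). Cars, the cysteinyl-tRNA synthetase, had a difference of -0.68 and fell by 0.28 in wild-type mice (adjusted p = 0.0255). Other members were the RNA helicases Ddx3x (-0.32, adjusted p = 0.176) and Dhx36 (-0.24), the translation initiation factor Eif5 (-0.22), the 3′ end processing factor Cpsf7 (-0.18), mitochondrial thioredoxin Txn2 (-0.45), the antiproliferative gene Tob2 (-0.67), the lipid transfer protein Pitpnb (-0.39) and Hcfc2 (-0.25). Of all 24 genes of both directions, 22 had the same sign in wild-type mice (all probe sets 61.1%), where 5 were compressed and 6 were called (all probe sets 2.48%). The 24 were chosen among uncompressed probe sets, where these shares are higher. Of the 5735 probe sets compressed in neither genotype, 73.0% had the same sign and 608 were called in wild-type mice. The adjusted p-values of the 24 without EtOH replicate 1 ran from 0.406 to 0.675.

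The interferon-stimulated genes had differences above 0 throughout. Type I and II interferons induce these genes, and their products restrict viruses (Ifit, Oas and Mx families), degrade intracellular pathogens (the GTPases Gbp and Igtp) or feed back on the pathway (Usp18). All 24 of 28 listed genes that were measured had a difference above 0, where 52.4% of all genes did, and their median was 0.47 against 1.34e-05 for all genes. This list, like the others below, was chosen with earlier results of these data known. Its members share the same 3 ethanol arrays and are not independent, so the count is a description and was not tested. Of the 24, 6 were compressed, with differences near 0 (Mx1, Mx2, Ifit2, Stat2, Oasl2 and Tap1). The 18 that were not compressed had a median of 0.54, against -0.006 for all 5182 uncompressed genes. No member passed the adjusted test, 11 had an unadjusted p under 0.05 and a difference above 0 (all genes 4.38%), 0 one below, and 5 did not overlap between the groups (all genes 1.68%). Without EtOH replicate 1, the count above 0 stayed at 24, the median was 0.24, 5 had an unadjusted p under 0.05 and 6 did not overlap (all genes 3.46% and 4.62%).

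The promoters of some of these genes hold the core of the interferon-stimulated response element, to which IRF factors bind. The letters GAAA, any 2 bases and GAAA again, on either strand, were found in the window from 250 bases before to 50 after the start site in 9 of the 18 measured members with a promoter in RefSeq (GRCm38.p6), in 3.99% of 27025 genes and in 3.44% of 32851 promoters. A match is a description of the sequence and was not tested for binding. Windows of 120 bases are shown for 4 members described here, on the plus strand from 5′ to 3′ with the matches in capitals, overlapping matches running together. They are Gbp3 (chr3:142559924-142560043), Igtp (chr11:58199436-58199555) and Ifit1 (chr19:34640769-34640888), each ending at the base before the start site, and Ifit3 (chr19:34583369-34583488), which ends 41 bases before it.
Gbp3: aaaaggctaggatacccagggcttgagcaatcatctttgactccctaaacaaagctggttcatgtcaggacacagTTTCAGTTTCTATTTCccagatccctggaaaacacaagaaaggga
Igtp: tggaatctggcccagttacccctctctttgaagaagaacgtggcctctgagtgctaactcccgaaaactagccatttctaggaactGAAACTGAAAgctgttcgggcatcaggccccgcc
Ifit1: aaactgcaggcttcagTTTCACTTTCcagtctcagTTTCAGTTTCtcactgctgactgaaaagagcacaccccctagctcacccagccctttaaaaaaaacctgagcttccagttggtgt
Ifit3: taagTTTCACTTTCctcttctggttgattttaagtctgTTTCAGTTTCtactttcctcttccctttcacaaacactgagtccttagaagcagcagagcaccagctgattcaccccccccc

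Gbp3, whose promoter holds 2 overlapping matches, read 6.62, 6.92 and 7.27 with ethanol and 7.52 to 7.88 (median 7.78) with the polyphenols, a difference of 0.79 ± 0.18 (adjusted p = 0.42; 0.64 without EtOH replicate 1). On the control diet it read 8.11, 7.79 and 7.41, so the ethanol arrays were the lowest of the CAR-deficient arrays. Usp18, the protease that removes ISG15 and damps interferon signalling, had the same arrangement with 7.94, 8.38 and 8.07, then 8.46 to 9.09 (median 8.70), and 9.18, 9.16 and 9.03 on the control diet. Its difference was 0.59 ± 0.14 (adjusted p = 0.42).

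Irf1, a transcription factor of the interferon response, read 8.99, 9.30 and 9.30 with ethanol and 9.44 to 9.85 (median 9.65) with the polyphenols (0.44 ± 0.10). Igtp read 8.28, 9.12 and 9.07 against 9.20 to 9.96 (median 9.68), a difference of 0.79 ± 0.24 that was 0.51 without EtOH replicate 1. In both, the lowest polyphenol array stood just above the highest ethanol array. Differences of 0.75 and 0.74 were found for Ifit1 and Ifit3, whose groups overlapped. Tnfsf10, the death ligand TRAIL, had the largest difference of the list at 0.98 ± 0.36 (adjusted p = 0.527; 0.67 without EtOH replicate 1), with 7.09, 8.08 and 7.95 against 7.71 to 9.25, and it was the only member called in wild-type mice, where it rose by 0.93 (adjusted p = 0.015). There, 19 of the 24 were above 0 with a median of 0.0003.

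Both polyphenols carried the pattern, with 24 of 24 members above 0 for EtOH+EA (median 0.36) and for EtOH+RSV (median 0.38), each against the same 3 ethanol arrays. Markers of the cells that respond to interferon are given beside it. All 12 measured T and NK cell markers were compressed, and the mean level of the 13 Kupffer cell markers was 8.67 to 8.87 with ethanol and 8.67 to 8.90 with the polyphenols. The mean of the 12 sinusoidal endothelial markers was 8.96 to 9.09 and 9.08 to 9.18, and of the 6 that were not compressed 3 were above 0 (Lyve1 at 0.59 and Clec4g at 0.17, both without overlap, and Fcgr2b at 0.19) and 3 below (Stab2 at -0.12, Kdr at -0.03 and Gpr182 at -0.02). Of all genes, 1.68% were higher without overlap, as Lyve1 and Clec4g were. The median over the 12 endothelial markers was 9.0e-05. With EtOH replicate 1 left out 6 were above and 6 below 0, 2 without overlap in each direction (all genes 4.62% higher and 3.79% lower). Less RNA per cell and fewer cells of a type cannot be told apart in whole liver, and the part of the endothelial markers in the interferon pattern was not tested.

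**Figure D2:**
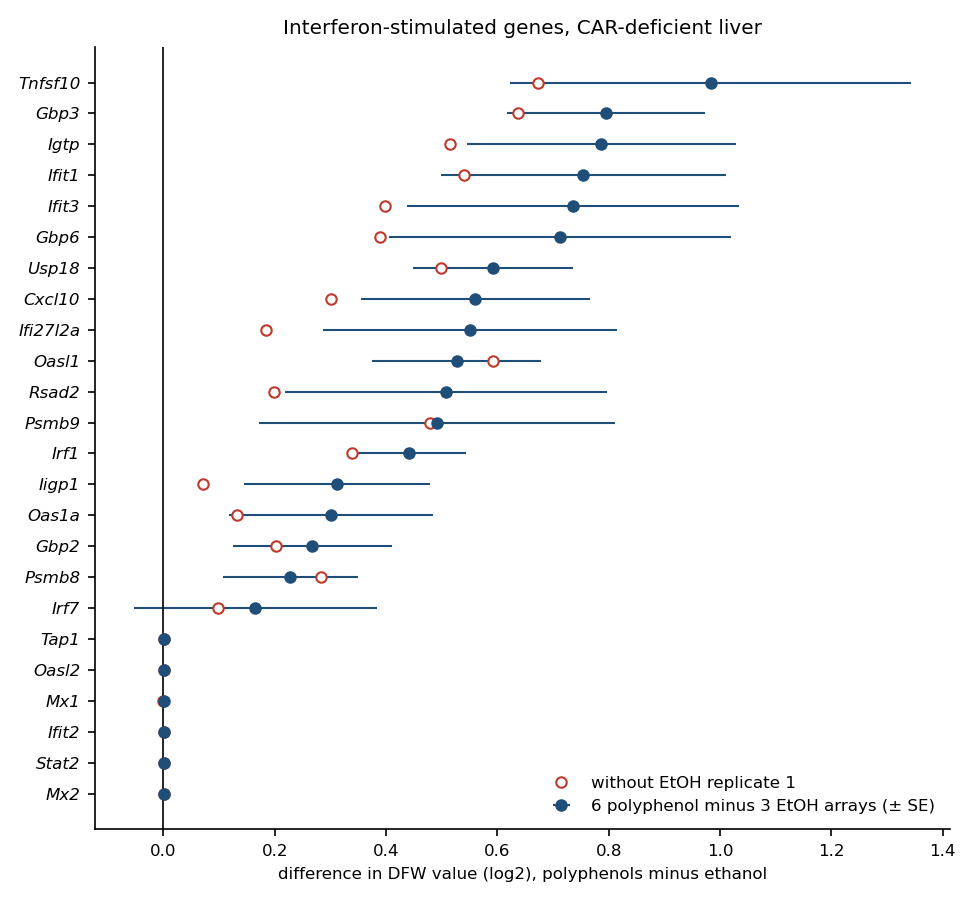
Difference in DFW value (log2, x axis) between the 6 polyphenol and the 3 ethanol arrays of CAR-deficient mice for the 24 measured interferon-stimulated genes (y axis). Filled points are fitted differences with bars of 1 SE, and open points leave out EtOH replicate 1. All points lie above 0, the 6 compressed genes barely so.

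Male-biased and female-biased liver genes differed in sign. Growth hormone pulses in males keep genes such as Cyp4a12a, Slco1a1 and the Mup family on and genes such as Sult3a1, Cyp3a44 and Cux2 off. Of 13 measured male-biased genes, 12 were above 0 with a median of 0.46, 4 had an unadjusted p under 0.05 (all genes 4.38%) and 2 did not overlap (all genes 1.68%). Of 10 measured female-biased genes, 7 were below 0 with a median of -0.33, and 1 had an unadjusted p under 0.05 (all genes 4.21%). Against the same ethanol arrays the female-biased median was -0.63 for EtOH+EA, with 2 of 10 above 0, and -0.06 for EtOH+RSV, with 5 of 10 above 0, while the male-biased medians were 0.48 and 0.35. Without EtOH replicate 1 the medians were 0.35 and -0.52, and the female-biased median was -0.12 when each gene was represented by its probe set of largest SD. No member of either list passed the adjusted test.

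Cyp4a12a, a male-specific fatty acid and arachidonate hydroxylase, read 6.70, 7.39 and 6.33 with ethanol, 6.74 to 9.84 (median 9.37) with the polyphenols and 11.33, 11.44 and 11.34 on the control diet. Its difference was 2.21 ± 0.60 (adjusted p = 0.42; 2.16 without EtOH replicate 1). Slco1a1, an organic anion uptake carrier, read 7.25, 7.06 and 6.76 with ethanol, 6.94 to 9.99 (median 9.19) with the polyphenols and 12.18 to 12.43 on the control diet, a difference of 1.93 ± 0.59 (adjusted p = 0.464). In both genes the polyphenol arrays stood between the ethanol and the control arrays, except EtOH+RSV replicate 3, which lay among the ethanol arrays.

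C8a, a subunit of the complement membrane attack complex, read 10.95, 11.16 and 10.20 with ethanol and 11.44 to 11.84 (median 11.64) with the polyphenols, a difference of 0.87 ± 0.19 (adjusted p = 0.42) without overlap. Cyp2d9, a male-specific steroid hydroxylase, differed by 0.65. Hsd3b5, another male-specific enzyme of steroid metabolism, was the exception at -0.18. It read 12.12 to 12.40 on the control diet and 6.27 to 6.77 on all 9 arrays of the ethanol diets.

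Sult3a1, a female-specific sulfotransferase, had the widest spread of these genes. It read 12.59, 9.44 and 11.53 with ethanol, 7.12 to 11.28 (median 7.96) with the polyphenols and 5.58 to 5.74 on the control diet, a difference of -2.81 ± 0.97 (adjusted p = 0.509; -2.10 without EtOH replicate 1). EtOH+RSV replicate 3 was again the array beside ethanol. Hao2, a peroxisomal hydroxyacid oxidase, differed by -1.53 on all arrays and by -2.61 without EtOH replicate 1, whose value of 7.55 was far below the other ethanol arrays (10.25 and 11.33). In wild-type mice Sult3a1 and Cyp3a44 were compressed. None of the 23 measured genes of both lists was called there (all probe sets 2.48%) or in the test of the genotypes against each other (all probe sets 0.0866%). That test did call Mup5 and 2 shared Mup probe sets, members of neither list.

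**Figure D3:**
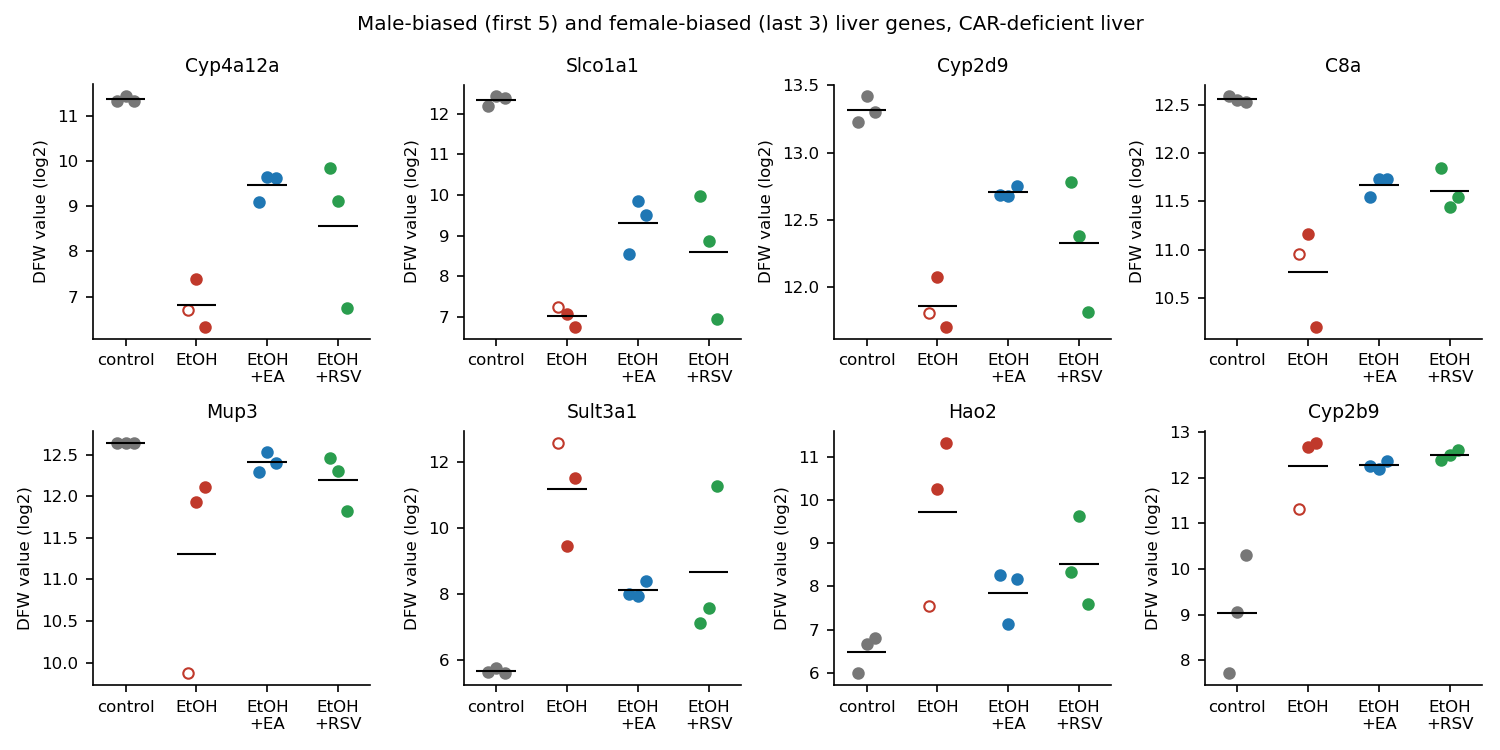
DFW values (log2, y axis, which does not start at 0 and differs between panels) of 5 male-biased and 3 female-biased liver genes on each CAR-deficient array, by diet on the x axis. Points are arrays, bars are means of 3, and the open point is EtOH replicate 1. Cyp4a12a and Slco1a1 are highest on the control diet and lowest with ethanol, and Sult3a1 runs the other way.

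Most genes of protein folding in the ER had differences below 0. Among 31 measured ER chaperones and genes of the unfolded protein response, which restores folding capacity under ER stress, 28 were below 0 with a median of -0.28, and 4 had an unadjusted p under 0.05 and a difference below 0, namely Eif2ak3, Dnajb9 (-0.44), Edem1 (-0.41) and Sec61a1 (-0.47) (all genes 4.21%). The luminal chaperone Hspa5 differed by -0.24. Much of the size of this median rested on EtOH replicate 1. Without it the median was -0.07, 25 of 31 were below 0 and 1 gene, Eif2ak3, kept an unadjusted p under 0.05 (all genes 3.39%). In wild-type mice 2 of 31 were above 0 with a median of -0.21, and 3 were called lower. Cytosolic heat shock proteins had the other sign in CAR-deficient mice, with 13 of 17 above 0 and a median of 0.17 (0.16 without EtOH replicate 1). In wild-type mice 2 of 17 were above 0 and 4 were called lower, as were 365 of all 18188 genes. The test of the genotypes against each other called none of the 17 and 0.0866% of all probe sets, so a difference between the genotypes was not shown. Targets of ATF4, the factor that PERK signalling induces, were below 0 in 16 of 24 (14 without EtOH replicate 1), with Tars (-0.41) and Gars (-0.27) among them, but 10 were compressed and the median was -0.001. Of 28 splicing and nuclear RNA-binding factors 21 were below 0 (median -0.10), including Srsf2 (-0.29) and Cirbp (-0.54). Without EtOH replicate 1, 17 were below 0 (median -0.08).

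The median of the immediate early and glucocorticoid-responsive genes depended on one array. Of 21, 16 were below 0 with a median of -0.44, and 3 lay below the ethanol arrays without overlap (all genes 1.54%). Without EtOH replicate 1 the median was 0.0002, 10 were below 0 and 3 showed no overlap (all genes 3.79%). Ddit4, an mTORC1 inhibitor induced by glucocorticoids and stress, shows this with 12.34, 7.99 and 8.08 on the ethanol arrays against 7.50 to 7.89 (median 7.62). Its difference of -1.81 became -0.37. Pim3, a survival kinase, and Sgk1, a kinase induced by glucocorticoids, were the others without overlap and each differed by -0.72, and by -0.46 and -0.43 without EtOH replicate 1. Apoa1, the main apolipoprotein of HDL, also varied among the ethanol arrays (17.94, 16.18 and 14.87 against 14.24 to 14.74), while the mean level of the 9 hepatocyte markers was 15.6 to 16.1 with ethanol and 15.5 to 15.6 with the polyphenols.

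**Figure D4:**
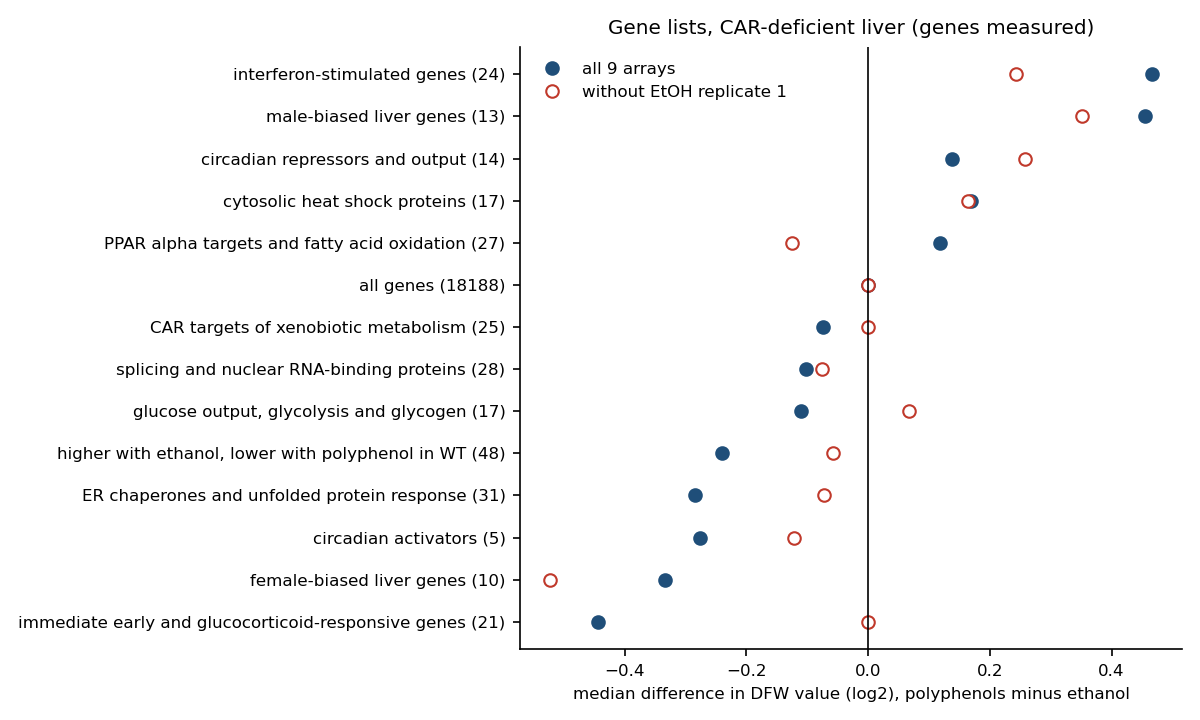
Median difference in DFW value (log2, x axis), polyphenols minus ethanol, over the measured genes of 13 lists and over all genes (y axis, number of genes in parentheses) in CAR-deficient mice. Filled points use all 9 arrays and open points leave out EtOH replicate 1. The interferon-stimulated and male-biased lists stay above 0 and the immediate early list moves from -0.44 to 0.0002.

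Genes that CAR controls in wild-type liver were divided. Of 25 measured targets of xenobiotic metabolism 12 were above and 13 below 0 (median -0.07, or -0.0002 without EtOH replicate 1), with 1 and 3 at an unadjusted p under 0.05 (all genes 4.38% and 4.21%). Cyp2b10 read 9.07, 7.18 and 7.61 with ethanol, 6.92 to 7.30 (median 7.10) with the polyphenols and 6.82 to 6.95 on the control diet. Its difference of -0.86 ± 0.35 (adjusted p = 0.567) was -0.30 without EtOH replicate 1, the one high array. Abcc2, the canalicular export pump for conjugates, read 11.10, 11.07 and 10.86 against 10.69 to 10.83, a difference of -0.25 without overlap. Sult5a1, a sulfotransferase, read 6.65, 6.66 and 6.70 with ethanol, 6.89 to 8.09 with the polyphenols and 7.65 to 7.97 on the control diet (0.88 ± 0.27, adjusted p = 0.464). For the enzymes of ethanol oxidation the differences were small, with Adh1 at -0.01, Aldh2 at 0.06 and Cyp2e1 at 0.13.

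Among clock genes, 10 of 14 repressors and output genes were above 0 (median 0.14), led by Per3 (0.93) and Dbp (0.81), and 4 of 5 activators below (median -0.28), with Arntl at -0.47. The medians were 0.26 (12 of 14 above 0) and -0.12 without EtOH replicate 1. None passed the adjusted test, whereas 7 of the 14 rose and 2 of the 5 fell in wild-type mice, where 249 of all 18188 genes rose and 365 fell. The test of the genotypes against each other called none of these 19 genes and 0.0866% of all probe sets. Ppara, the fatty acid receptor that drives hepatic oxidation, read 10.25, 11.42 and 11.16 with ethanol and 11.47 to 11.67 with the polyphenols (0.61 ± 0.22, adjusted p = 0.525; 0.26 without EtOH replicate 1). Its 27 measured targets and related genes had a median of 0.12, which turned to -0.13 without that array. Members of the Gadd45 family of stress sensors differed in sign, with Gadd45a at 1.04, Gadd45b at -0.98 and Gadd45g at -1.33, the last at -0.48 without EtOH replicate 1. The metallothionein Mt2 read 13.67, 9.86 and 11.69 with ethanol and 11.49 to 13.09 with the polyphenols, so that its difference was 0.83 with and 1.79 without EtOH replicate 1.

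No probe set passed the test between the polyphenols themselves. EtOH+EA against EtOH+RSV, at the same intake and time, gave 0 calls by limma (0%; 1342 probe sets, 2.98%, at an unadjusted p under 0.05; lowest adjusted p = 0.187) and 12 higher and 34 lower by rank product. Each alone against ethanol also gave 0 (3824 probe sets, 8.5%, unadjusted for EtOH+EA and 2459, 5.46%, for EtOH+RSV). Ellagic acid is a dilactone built of gallic acid units and resveratrol a stilbene. For the 24 genes above, the 95% interval of EtOH+EA minus EtOH+RSV included 0 in 20. It ran from -0.01 to 2.06 for Ptbp1, from -0.67 to 0.68 for Bmf and from -0.29 to 0.42 for Adk, so differences of these sizes between the compounds remain possible. The interval lay apart from 0 for Rcor3 (0.01 to 0.12), Nudt16 (0.04 to 0.48), Txn2 (-0.44 to -0.01) and Eif5 (-0.24 to -0.01), although none of these passed the test over all probe sets.

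Among the genes of lowest p between the compounds, the largest differences were in Cyp2c29 and Keg1. Cyp2c29, a CAR-responsive epoxygenase, was lower with EtOH+EA by a difference of -0.77 ± 0.19, and Keg1, a glycine N-acyltransferase-like gene, by -0.74 ± 0.19. Zbtb20, a repressor of fetal liver genes, gave -0.43 ± 0.06, Onecut2, a transcription factor of liver development, -0.35 ± 0.08 and the FGF21 coreceptor Klb -0.28 ± 0.07. Higher values with EtOH+EA were found for Srsf3 (0.56), Tdo2 (0.47), Extl1 (0.42), Gpd1 (0.31) and Mrpl41 (0.20). The adjusted p was 1.00 for all 10.

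In wild-type mice the same contrast, fitted over their 16 arrays, called 1117 of 45011 probe sets (2.48%), 441 higher and 676 lower. None of these was called in the CAR-deficient mice, and no array is shared between the genotypes. In CAR-deficient mice, 999 of the 1117 had the same sign (89.4%, against 61.1% of all probe sets), 278 had an unadjusted p under 0.05 in that direction (24.9%, against 6.56%) and 1 in the opposite one. Among the 608 that were compressed in neither genotype, 560 had the same sign (92.1%, against 73.0% of 5735), and the differences of the genotypes correlated with r = 0.80 across these probe sets, which share arrays and are not independent. The CAR-deficient difference was the smaller one in 449 of the 608. The wild-type values chose these probe sets, so this count was not tested. With EtOH replicate 1 left out, 961 of the 1117 had the same sign (86.0%).

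Each CAR-deficient array was also scored by the mean of the 608 probe sets, as deviations signed by the wild-type direction. The scores were -0.20, -0.08 and -0.16 with ethanol, -0.05, 0.15 and 0.19 with EtOH+EA and 0.14, 0.07 and -0.07 with EtOH+RSV, while the control diet gave -0.12, -0.13 and -0.09. All 6 polyphenol arrays lay above the ethanol and control arrays, EtOH+EA replicate 1 and EtOH+RSV replicate 3 only just above EtOH replicate 2. Of the 10 probe sets with the largest rise and the 10 with the largest fall in wild-type mice, all 20 had the same sign in CAR-deficient mice and 18 were smaller there. The choice by wild-type size favours smaller values in the other genotype, and DFW was run apart for the genotypes, as judged from the values. The count of smaller values therefore cannot show whether the response was weaker. The test of the genotypes against each other called none of the 20 and 0.0866% of all probe sets. The 20 included the clock output Dbp (1.11 in wild-type and 0.81 in CAR-deficient mice), the DNA repair nuclease Dclre1a (1.64 and 0.85) and the clock activator Arntl (-0.79 and -0.47).

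**Figure D5:**
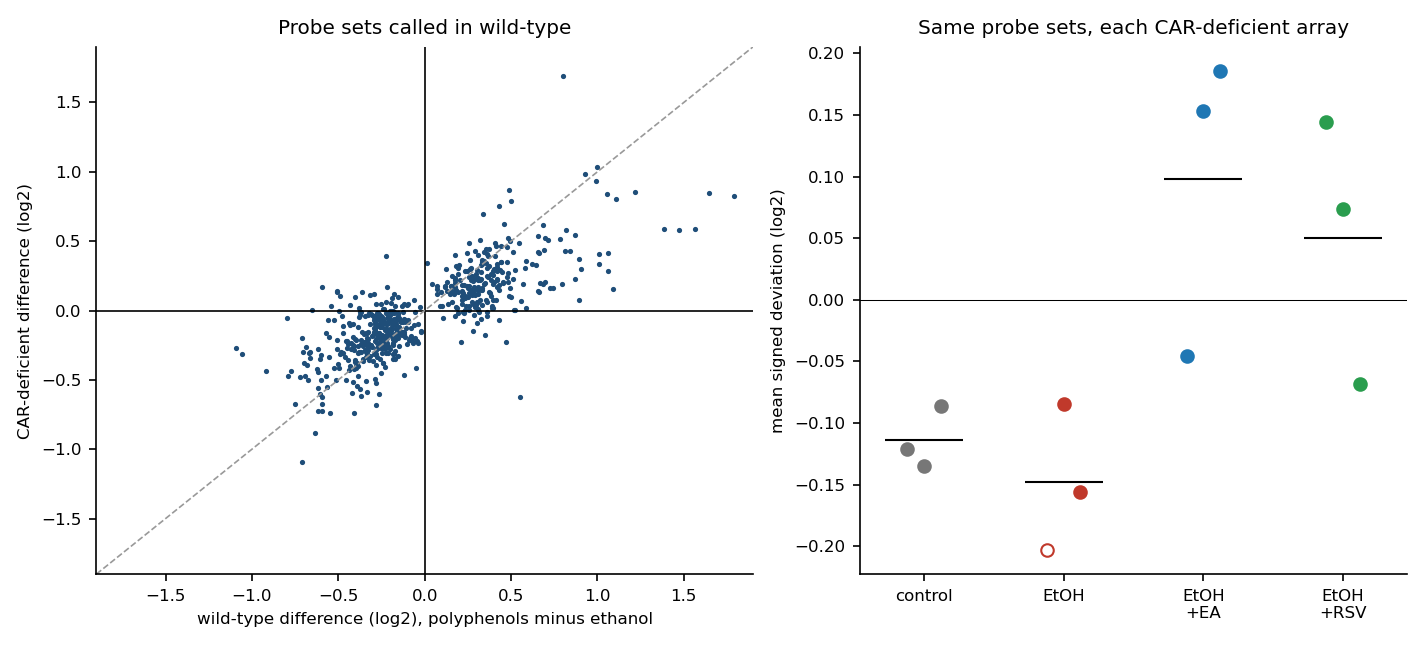
Left, difference in DFW value (log2), polyphenols minus ethanol, in CAR-deficient (y axis) against wild-type mice (x axis) for the 608 probe sets called in wild-type mice and compressed in neither genotype, with a dashed line where both are equal. Right, mean deviation of these probe sets (log2, signed by the wild-type direction) on each CAR-deficient array, with means of 3 as bars and EtOH replicate 1 open. Most points on the left fall in the quadrants of equal sign, and the ethanol arrays on the right lie at or below -0.08.

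The test of the difference between the genotypes (CAR-deficient effect minus wild-type effect, 28 arrays) called 39 probe sets (0.0866%), 17 higher and 22 lower. The count ran from 45 to 410 when 1 of the 12 CAR-deficient arrays was left out, the highest without EtOH replicate 2. Wild-type arrays were not left out in turn. Of the 39, 19 were compressed in wild-type mice only, 8 in CAR-deficient mice only and 7 in both. DFW was run apart for the genotypes, as judged from the values. Only 5 probe sets rest on uncompressed values on both sides. These were the Ptbp1 probe set (2.43, adjusted p = 0.00599), 2 probe sets shared by several Mup genes (1.48 and 1.35, adjusted p = 0.00577 and 0.00599), Txn2 (-0.50, adjusted p = 0.00805) and Shld1 (-0.37, adjusted p = 0.00599), whose wild-type difference was 0.39 and CAR-deficient difference 0.02. Several of the 5 varied little in 1 genotype, so they share the limit of scale. The SD over the wild-type arrays was 0.06 and 0.04 for the Mup probe sets and 0.09 for Txn2, against 0.87, 0.76 and 0.30 in CAR-deficient mice. For Shld1 the SD was 0.02 in CAR-deficient and 0.21 in wild-type mice. The other uncompressed Txn2 probe set differed by only -0.03 in CAR-deficient mice. The shared Mup probe set with the value of 1.35 read 12.03, 12.94 and 13.04 with ethanol and 13.56 to 14.41 with the polyphenols in CAR-deficient mice. Single Mup genes cannot be told apart in it.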

How the data were processed

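RNA of 28 livers had been hybridised by the authors, 1 mouse per array (Affymetrix, for the mouse genome). The deposited values are log2 values of the authors' Distribution Free Weighting (DFW), which weights probes by their variation between arrays and was applied to the 2 genotypes apart, as judged from the values. Levels are therefore not compared between genotypes, and arrays have no read depth, so their number (3 per diet) limits the precision. No further normalization was made. Of 45101 probe sets, 45011 were tested. Probe sets naming 1 gene (34925) were named from GEO's platform annotation (932 named several, 9154 none), and each gene on a list was represented by its probe set of highest mean.

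All 12 CAR-deficient arrays entered 1 linear model with a mean per diet (limma 3.58.1, R 4.3.3, 8 residual and 0.37 prior degrees of freedom), contrast mean of EtOH+EA and EtOH+RSV minus EtOH, two-sided, with Benjamini-Hochberg adjustment over all probe sets. The genotype difference used the 28 arrays with 8 group means. Rank product, with 50 permutations, was run in Python 3.11.15. Both were tested on simulated data. The genes named are the 12 per direction with the lowest unadjusted p among probe sets that name 1 gene, have an SD above 0.01, no overlap of the groups and a difference of at least 0.1, since none passed the adjusted threshold, and up to about 4 members of each list. Up to 5 per direction were added for the other contrasts. For the genotype difference these were taken only from the probe sets that passed its adjusted test. The members and the 42 gene lists were chosen with earlier results of these data known. The labels say that the arrays are separate mice, and no scan date or batch was given in the sources used here. The replicate numbers were not taken to pair the arrays: of 18 correlations between the deviations of same-numbered arrays, 5 exceeded 0.1 (-0.57 to 0.41), namely all 3 between control and ethanol (0.41, 0.29 and 0.33), 1 of 6 between ethanol and the polyphenol diets, and 1 between control and EtOH+EA.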

Additional observations from a re-analysis of the deposited data

Results flagged for a closer look

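Some named genes, up to 5 per direction, were chosen because they passed limma's interaction test of the genotypes. Their listing below was fixed by that choice and is no separate result. Hivep1, Wdfy3, Cd1d2 and Rab4a are not among the 24 genes of lowest p. Named genes whose polyphenol effect differed between the genotypes by this test were the following, each value being the CAR-deficient effect minus the wild-type effect. Higher in CAR-deficient mice were Ptbp1 (2.43, adjusted p = 0.00599), Mup5 (1.68, adjusted p = 0.00577), Gbp3 (0.79, adjusted p = 0.0432), Sox7 (0.67, adjusted p = 0.00599), Hivep1 (0.31, adjusted p = 0.0321) and Trafd1 (0.17, adjusted p = 0.0211). Lower were Slu7 (-1.35, adjusted p = 0.00599), Wdfy3 (-0.55, adjusted p = 0.019), Txn2 (-0.50, adjusted p = 0.00805), Cd1d2 (-0.49, adjusted p = 0.0321), Rab4a (-0.47, adjusted p = 0.0432) and Cpsf7 (-0.18, adjusted p = 0.00972). Of these 12, Ptbp1 and Txn2 were compressed in neither genotype, and the other 10 had an SD of at most 0.01 over the wild-type arrays, where DFW leaves next to no difference to compare with.

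Ddc, the aromatic amino acid decarboxylase, had 1 of its 6 polyphenol arrays far from the others, EtOH+RSV replicate 1 at 10.6. It was the only one of 61 probe sets examined in this way, where chance alone marks about 1 in 20.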

How the results depend on the processing

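Between polyphenols and ethanol, limma called 1 probe set in 3 of its alternatives and 0 in the others. The calls were Lsg1 without moderation of the variances (-0.0004, compressed, adjusted p = 0.0443) and Zfp760 in the fit of the compared arrays alone (adjusted p = 0.00597) and without control replicate 3 (adjusted p = 0.0132); over the arrays left out in turn the count was 0 to 1, here and for each polyphenol against ethanol, and 0 between the polyphenols. Rank product called 1158 probe sets at a false discovery rate of 0.05 and 795 at 0.025 (1051 and 731 without EtOH replicate 1, added after seeing the data), 46 and 21 for EtOH+EA against EtOH+RSV, 247 and 148 for EtOH+EA against ethanol, and 73 and 46 for EtOH+RSV against ethanol. The cause of the gap between the tools was not tested.

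The genotype interaction ranged from 45 to 410 calls when 1 of the 12 CAR-deficient arrays was left out, against 39 with all. It reached 410 without EtOH replicate 2, 238 without EtOH replicate 3, 199 without EtOH+RSV replicate 2, 151 without EtOH+RSV replicate 3 and 122 without EtOH+EA replicate 1. With the replicate number as a block it gave 19, and 0 in the contrasts within CAR-deficient mice. Same-numbered control and ethanol arrays deviated together (3 of 3 correlations over 0.1), which the other pairs of diets did not show in all 3 numbers, so the block was kept as an alternative. The cause was not tested.

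The separation of the arrays ranged from -8.57e-05 (without EtOH replicate 1, p = 0.393, exact permutation test) to 0.00504 when 1 array was left out. The share of the wild-type response with the same sign ranged from 84.3% to 91.9% when 1 of the 12 CAR-deficient arrays was left out. With each gene represented by its probe set of largest SD, the median of the female-biased genes was -0.12 in place of -0.33. None of the 24 genes of lowest p changed sign in any alternative. Their groups were chosen not to overlap, so leaving out an array could not change the sign, and this is no separate support.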
